A study of Mus musculus with 2 samples.

Results

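The 43 genes described here act in mitosis and cytokinesis. They were found by mapping each listed Ensembl gene identifier, without its version, to its mouse GENCODE symbol and keeping a fixed set of mitotic symbols. Every symbol matched 1 identifier, so the set is 43 of the 43346 Ensembl genes in the tables, or 43 of 21461 nuclear protein-coding genes. By role, 10 are kinases, cyclins and their partners, 10 belong to the spindle checkpoint and the anaphase-promoting complex or cyclosome (APC/C), and 5 to the kinetochore. A further 7 are condensin and chromosome structure genes, 5 encode motors and spindle proteins, and 6 act in cytokinesis. The rule uses symbols and no measured value, although the set was drawn up with earlier results of these data known.

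The RNA came from G1E-ER4, an immortalized mouse erythroid line of C57BL/6J origin that lacks working endogenous Gata1 and carries a restored GATA1 that becomes active with estradiol. Both cultures had received 10 nM 17β-estradiol for 24 h, which starts erythroid differentiation, and the labels call them biological replicates 1 and 2. Total RNA was sequenced, with a stated size range above 200 (no unit given) and a stated starting quantity of 1 ng. Both libraries come from 1 line and 1 treated group, without untreated cells, so estradiol's effect cannot be read from them and there is no contrast to test.

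Entry into mitosis is driven by CDK1 bound to A- and B-type cyclins, helped by the Polo and Aurora kinases. The spindle checkpoint holds back the APC/C, a ubiquitin ligase that marks cyclin B and securin for destruction, until all kinetochores are attached to microtubules. Condensins compact the chromosomes, kinesins shape the spindle, and the centralspindlin and anillin proteins build the cleavage furrow. Maturing erythroid cells go through a few last divisions before they leave the cell cycle and lose the nucleus.

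Summed expected counts were 50277914 for replicate 1 and 47478888 for replicate 2. Nuclear protein-coding genes took 28.6% of the counts in replicate 1 and 29.3% in replicate 2. The 2 non-coding loci Gm42418 and Gm26917 together took 55.7% of all counts in replicate 1 and 54.2% in replicate 2, nearly all of it Gm42418. The 43 mitotic genes held 160313 and 156133 counts, or 1.12% ± 0.00555 of the nuclear protein-coding counts (SD, n = 2). A single gene lay between 305 counts (Pttg1, replicate 2) and 47292 (Mki67, replicate 1), and Mki67 alone made up 29.5% and 30.2% of the mitotic counts. Chi-square per degree of freedom between the libraries was 8.07 over the 43 genes, where sampling noise alone gives about 1, beside 7.83 over the 8285 nuclear protein-coding genes with at least 200 counts in all. The libraries were therefore treated as separate replicates. The erythroid markers Gata1, Klf1, Gfi1b, Hbb-bs, Alas2 and Kit were all present, at 10.7 (Alas2) to 1001 (Hbb-bs) mean TPM, a level adjusted for transcript length and scaled to the same total in every library.

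Many mitotic promoters are known to carry a CHR, the cell cycle genes homology region bound by the DREAM and MuvB complexes, downstream of CCAAT boxes bound by NF-Y. The 250 bases before the annotated start were therefore searched on both strands for CHR letters (TTTGAA or TTCGAA, where TTCGAA reads the same on both strands) and for CCAAT. RefSeq promoter sequences (build GRCm38.p6) were present for 36 of the 43 genes, in 39 windows, since Bub3, Prc1 and Ect2 have more than 1 start. A CHR was found in 46.2% of these windows (18 windows, 16 genes), beside 17.1% of all 32851 windows and 12.5% of the windows of detected nuclear protein-coding genes. CCAAT was found in 76.9% (30 windows, 27 genes), beside 33.8% and 36.8%. Both occurred together in 43.6% (17 windows, 15 genes), beside 6.02% of all windows and 5.20% of those of detected genes. In no window of the 43 genes did CHR and CCAAT letters overlap. A match describes the letters only, and binding was not measured.

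In 9 genes a CHR began within 50 bases of the start, which was so for 23.1% of the mitotic windows, 2.77% of all windows and 1.88% of those of detected genes. In 8 of them a CCAAT box also lay in the last 120 bases. Some of those bases lie inside the GENCODE gene, whose start is further upstream, in Espl1 (27), Cdk1 (26), Prc1 (26) and Cdc20 (9). They take in the CHR nearest the start in Cdk1 and Espl1, and part of it in Prc1. In Ube2c (31) and Bub3 (120) more than 30 of the 120 bases lie inside the GENCODE gene, and these take in the CHR nearest the start. In Bub3 they take in the CCAAT boxes as well. The stretches of the other 6 are shown 5′ to 3′ on the gene's strand, ending at the base before the RefSeq start, because they carry both elements close together; capitals mark CHR and CCAAT letters on either strand.
Cdk1 (chr10:69352913-69353032, minus strand): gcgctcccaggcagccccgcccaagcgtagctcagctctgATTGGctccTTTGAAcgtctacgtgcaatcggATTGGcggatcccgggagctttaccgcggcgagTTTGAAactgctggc
Cdc20 (chr4:118437344-118437463, minus strand): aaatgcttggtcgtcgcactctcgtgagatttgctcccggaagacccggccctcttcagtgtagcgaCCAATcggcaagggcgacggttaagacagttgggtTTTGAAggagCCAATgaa
Espl1 (chr15:102296173-102296292, plus strand): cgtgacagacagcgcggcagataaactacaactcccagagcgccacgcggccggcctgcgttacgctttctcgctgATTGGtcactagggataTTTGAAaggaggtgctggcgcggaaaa
Top2a (chr11:99024190-99024309, minus strand): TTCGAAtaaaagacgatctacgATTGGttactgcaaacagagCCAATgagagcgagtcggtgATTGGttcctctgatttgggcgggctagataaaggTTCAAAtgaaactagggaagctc
Kif11 (chr19:37376262-37376381, plus strand): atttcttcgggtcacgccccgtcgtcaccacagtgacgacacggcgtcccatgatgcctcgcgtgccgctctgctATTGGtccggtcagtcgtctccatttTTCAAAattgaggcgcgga
Prc1 (chr7:80294356-80294475, plus strand): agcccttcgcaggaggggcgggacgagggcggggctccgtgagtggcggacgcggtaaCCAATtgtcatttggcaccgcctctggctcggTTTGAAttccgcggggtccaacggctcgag
Counting the base before the start as position -1, the CHR nearest the start began at position -15 in Cdk1, -18 in Cdc20, -19 in Kif11, -23 in Top2a, -27 in Espl1, -29 in Ube2c, -30 in the second Prc1 start and -43 in the first Bub3 start. The closest CCAAT box before it began 17 bases upstream in Espl1 and 26 to 35 bases upstream in the other 7. Cdc20 and Bub3 carried a further CCAAT box between the CHR and the start. Ncapg was the ninth gene, with a CHR at -30 and its only CCAAT box at -176. Ccnb1 had CCAAT at -99 and -67 and no CHR letters in the window, and Mki67 had a CHR at -116 and at -98.

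**Figure D1:**
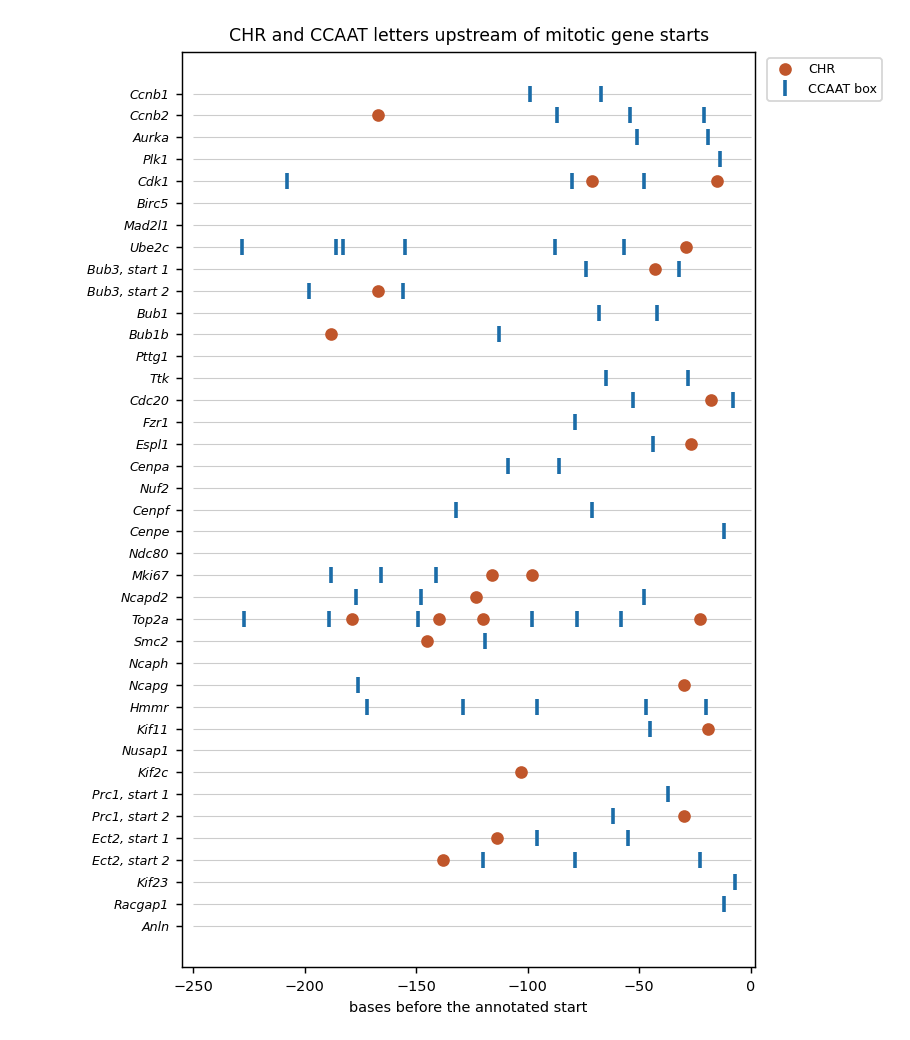
Positions of CHR letters (circles) and CCAAT boxes (bars) in the 250 bases before 39 RefSeq starts of 36 mitotic genes. The horizontal axis gives the first base of each match in bases from the start. Letters of both kinds are present in 17 windows, and in 9 windows a CHR begins within 50 bases of the start.

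Both libraries gave a TPM of at least 1 for all 43 genes, the threshold for detection here, and for 40.2% of nuclear protein-coding genes. Their median was 24.1 TPM, beside 9.76 TPM over the 8620 detected nuclear protein-coding genes, and 39 of the 43 lay above that second median. Mki67, Ncapd2, Smc4, Top2a, Ccna2, Mad2l1, Ube2c, Ccnb1 and Tpx2 were in the top 10% of detected genes. Espl1, Fzr1, Cdc20 and Ttk lay below the median of detected genes. A level in bulk RNA does not tell apart a larger share of dividing cells from more RNA per cell.

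Among the kinases, cyclins and partners the median was 21.6 TPM. Ccna2, which encodes cyclin A2 of S phase and early mitosis (chromosome 3, 36564865 to 36572150, mm10), had 87.9 TPM in replicate 1 and 87.5 TPM in replicate 2. Ccnb1, the cyclin B1 gene (chromosome 13, 100778650 to 100786570), had 61.7 and 69.9 TPM in replicates 1 and 2. Its relative Ccnb2 had 24.2 and 23.9 TPM. Cyclin A2 was therefore highest in both libraries and cyclin B2 stood well below cyclin B1. Aurkb, the kinase of the chromosomal passenger complex, had 41.8 and 34.9 TPM. Aurka, which works at centrosomes and spindle poles, had 23.8 and 21.6 TPM. Both libraries placed Aurkb above Aurka. The passenger subunits Incenp (16.5 and 17.9 TPM) and Birc5, or survivin (15.7 and 18.2 TPM), were lowest of this group on all transcripts, and their levels overlapped. Cdk1, the mitotic kinase itself (chromosome 10, 69335146 to 69352938), had 19.5 and 20.2 TPM, Plk1 averaged 20.4 ± 0.693 TPM, and Foxm1, a transcription factor that drives mitotic genes, 19.2 ± 3.75 TPM (SD, n = 2).

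The checkpoint and APC/C genes had a median of 19.6 TPM and levels from 7.12 to 70.9 TPM. Mad2l1, which encodes the checkpoint protein MAD2, averaged 70.9 ± 3.24 TPM (SD, n = 2), with 73.15 in replicate 1 and 68.6 in replicate 2. Ube2c, the ubiquitin-conjugating enzyme of the APC/C, had 75.3 and 62.85 TPM. The order of these 2 genes differed between the libraries. Bub3, a scaffold of the checkpoint complex, averaged 45.2 ± 0.997 TPM. The checkpoint kinase gene Bub1 had 38.5 and 36.5 TPM, and Bub1b, which encodes BUBR1, had 20.0 and 20.9 TPM. The kinase Ttk, or MPS1, which starts checkpoint signalling, had 9.52 and 9.57 TPM. The APC/C activators were low: Cdc20, used before anaphase, had 9.0 and 9.67 TPM, and Fzr1, which encodes CDH1 and acts from late mitosis into G1, had 7.65 and 6.78 TPM. Pttg1, the securin gene, had 19.8 and 17.6 TPM. Espl1, the gene of the separase that securin holds inactive, had 6.47 and 7.76 TPM, the lowest mean of all 43 on all transcripts, although Fzr1 was lower in replicate 2. On transcripts annotated as protein-coding Ttk (5.83 mean TPM), Cdc20 (5.98) and Fzr1 (6.38) lay below Espl1 (7.12).

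The kinetochore genes lay close together, with a median of 18.0 TPM. Cenpa, the centromeric histone H3 variant, had 31.8 TPM in replicate 1 and 30.3 TPM in replicate 2, the highest level of the group on all transcripts. On coding transcripts alone it had 18.1 and 15.05 TPM, and its mean of 16.6 TPM was below the 17.2 TPM of Nuf2. Nuf2 had 17.0 and 19.8 TPM and Ndc80, its partner in the microtubule-binding NDC80 complex, had 13.3 and 15.1 TPM. Cenpe, a kinesin of the kinetochore, had 15.4 and 16.7 TPM. Cenpf, a large coat protein of the kinetochore, had 14.9 and 21.1 TPM, so its libraries spanned the levels of Nuf2 and Cenpe.

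The condensin and chromosome structure genes had a median of 91.5 TPM on all transcripts, the highest of the 6 groups. On coding transcripts the median was 32.0 TPM, close to the 31.5 TPM of the motor and spindle genes. Mki67, whose protein coats mitotic chromosomes (chromosome 7, 135689784 to 135716361), had 144 TPM in replicate 1 and 151 TPM in replicate 2. Top2a, the topoisomerase that untangles sister DNA, averaged 91.5 ± 1.34 TPM (SD, n = 2). The condensin ATPase genes Smc4 (101 and 92.5 TPM) and Smc2 (44.2 and 39.2 TPM) differed, although their proteins pair in a single complex. Of the condensin I subunits, Ncapd2 (chromosome 6, 125168007 to 125191701) had 99.1 and 105 TPM. Ncaph had 30.2 and 28.1 TPM and Ncapg had 27.1 and 27.8 TPM. The high levels of Ncapd2 and Smc4 rested largely on transcripts not annotated as protein-coding, as described further on.

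The motor and spindle genes had a median of 33.4 TPM. Tpx2, the spindle assembly factor that activates Aurora A, had 62.6 and 68.8 TPM in replicates 1 and 2, and Hmmr, a spindle-pole protein, had 35.9 and 40.2 TPM. Kif11, the kinesin that pushes spindle poles apart, averaged 33.4 ± 1.05 TPM. Nusap1, which bundles spindle microtubules, had 15.5 and 18.3 TPM, and Kif2c, a kinesin that depolymerizes microtubules at centromeres, was lowest with 12.65 and 12.4 TPM.

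The cytokinesis genes lay in a narrow range on all transcripts, between 19.8 and 36.7 mean TPM with a median of 24.8 TPM. On coding transcripts the range was wider, from 9.85 (Ect2) to 31.6 mean TPM (Prc1). The coding value of Prc1 includes short transcripts, among them the 703 nt Prc1-205 (6.90 and 3.21 TPM) and the 291 nt Prc1-213 (2.57 and 1.76 TPM). Prc1, the bundler of the central spindle, led with 36.1 and 37.2 TPM. Ect2, the exchange factor that activates RhoA at the furrow, had 23.3 and 29.25 TPM. The 2 centralspindlin genes were close on all transcripts. The kinesin Kif23 had 24.2 and 26.8 TPM and Racgap1 had 22.4 and 25.75 TPM. On coding transcripts Kif23 averaged 25.5 TPM and Racgap1 18.0 TPM. Kif20a, a kinesin of the midzone, had 20.2 and 21.97 TPM, and the furrow scaffold gene Anln had 18.8 and 20.7 TPM.

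**Figure D2:**
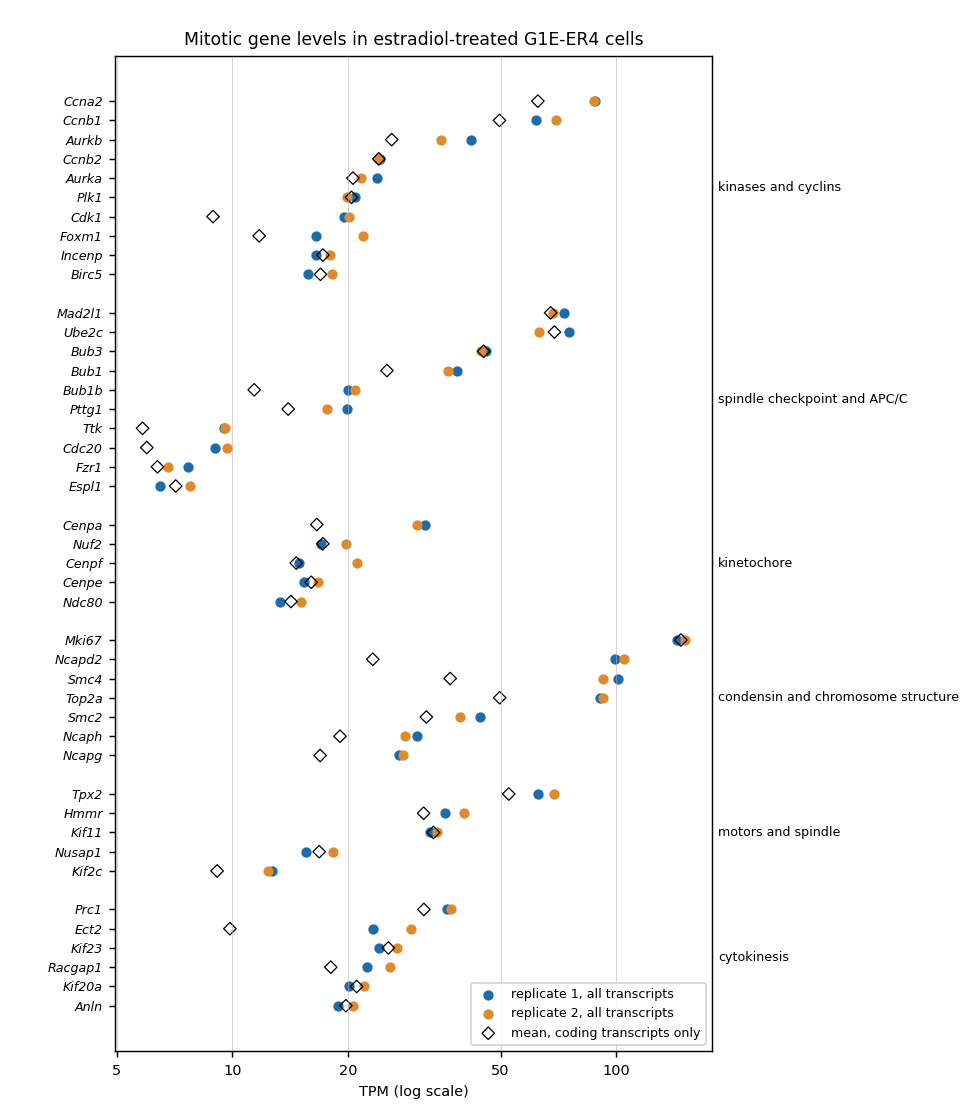
TPM (log axis) of each of the 43 mitotic genes in replicate 1 and replicate 2, by role and ordered by mean within a role; open diamonds give the mean TPM of transcripts annotated as protein-coding. The genes lie between 6.47 TPM (Espl1, replicate 1) and 151 TPM (Mki67, replicate 2), and the diamonds of Ncapd2, Smc4, Cdk1 and Ect2 lie far left of their circles.

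Other genes of the same machinery were expressed too. All 94 further mitotic genes of 6 lists were detected, with a median of 12.4 TPM, and the 24 genes of replication licensing and the replication fork had a median of 24.6 TPM. All 15 APC/C subunits and partners were detected, led on all transcripts by the scaffold gene Anapc1 (78.9 and 85.1 TPM) and the chain-extending enzyme gene Ube2s (58.1 and 65.7 TPM), with Anapc10 (4.51 and 3.48 TPM) lowest on the mean but above Anapc7 (3.84 TPM) in replicate 1. The scaffold transcript thus stood above both activators, Cdc20 and Fzr1, in each library. The 32 kinetochore and centromere genes had a median of 9.36 TPM. Among them Pmf1, a subunit of the MIS12 complex, had 64.8 and 70.2 TPM, the CENP-A chaperone gene Hjurp had 55.6 and 60.2 TPM, and Cenpt had the lowest mean with 2.93 and 3.20 TPM. Cenpl (3.74 and 2.49 TPM) was lower than Cenpt in replicate 2, and on coding transcripts it averaged 0.99 TPM against 3.07 TPM for Cenpt. The 7 checkpoint and passenger genes had a median of 11.9 TPM, from Cdca8, or borealin (23.1 and 22.6 TPM), and the cohesin protector Sgo2a (18.3 and 16.9 TPM) down to Mad1l1 (3.18 and 3.11 TPM), although Haspin was lower in replicate 1 (2.99 TPM). MAD1 anchors MAD2 at kinetochores, and the gene for MAD2 was far higher than that for MAD1 in both libraries.

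The 18 genes of mitotic entry had a median of 13.5 TPM. Cks2 (27.6 and 30.8 TPM) and Cks1b (26.4 and 25.9 TPM), small subunits of cyclin-dependent kinases, led, and the phosphatase gene Cdc25b was lowest on all transcripts (3.99 and 4.46 TPM), though Lin9, a subunit of the MuvB core, averaged 0.42 TPM on coding ones. The 19 further spindle and cytokinesis genes had a median of 15.3 TPM, led by the microtubule polymerase gene Ckap5 (31.8 and 32.5 TPM) and the kinesin Kif15 (30.3 and 32.6 TPM), with Kifc1 lowest (6.00 and 4.62 TPM). The 3 condensin II genes lay at 19.2 to 23.5 mean TPM. Ncapd3 had 18.9 and 20.5 TPM and Ncapg2 had 18.7 and 19.7 TPM. Ncaph2 had 18.9 and 28.0 TPM on all transcripts, level with Ncapd3 in replicate 1 and above it in replicate 2. On coding transcripts Ncaph2 had 9.88 and 10.5 TPM, the lowest of the 3, while Ncapd3 and Ncapg2 kept their values.

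Of 9 paralogs of the 43 genes, 7 had no reads. Only Top2b, the topoisomerase of non-dividing cells as well as dividing ones, was detected, with 103 and 102 TPM. On TPM of all transcripts this was above Top2a in both libraries. On expected counts all 9 paralogs together held 8516 and 8543, fewer than the 9528 and 9184 of Top2a. Plk3 had 0.99 and 0.88 TPM. Those without reads were Ccna1, Ccnb3, Aurkc, Cdc20b, Kif2b, Plk2 and Plk5. A count of 0 leaves room for 3 counts per library, by counting error alone. Several of these are known mainly from germ cells.

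What a gene's TPM meant depended on its transcripts. The 43 genes have 219 listed transcripts, 100 protein-coding, 72 annotated with a retained intron and 47 of other types, and 11 genes have a single one. Protein-coding transcripts held 75.2% ± 0.300 of the summed TPM of the 43 genes but 92.4% ± 0.0910 of their expected counts (SD, n = 2). Retained-intron transcripts held 15.7% ± 0.183 of TPM and 3.98% ± 0.01 of counts. TPM divides by length, so a short transcript with few counts weighs heavily in it. Of the 25 genes with a retained-intron transcript, 15 (60%) had 20% or more of their TPM there, beside 47.3% of the 3818 detected nuclear protein-coding genes with such a transcript. On counts 4 (16%) did, beside 29.9%. Across the 43 genes the median coding share was 81.9% of TPM, beside 92.3% over detected nuclear protein-coding genes. Among genes with at least 2 transcripts the medians were 74% for 32 mitotic genes and 80.3% for all 6477 detected nuclear protein-coding genes.

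In 4 genes the transcript with the highest mean TPM was not protein-coding. Cdk1-204, a retained-intron transcript of 475 nt, held 46.3% of Cdk1 TPM in replicate 1 and 39.9% in replicate 2. Of Cdk1 counts it held 17.3% and 16.8%. In Ncapd2 the 480 nt retained-intron transcript Ncapd2-208 held 24.7% and 28.6% of TPM, but 7.88% and 9.60% of counts. In Smc4 the 756 nt retained-intron transcript Smc4-204 held 28.8% and 26.2% of TPM, but 7.70% and 6.37% of counts. Ect2-205, a 687 nt transcript annotated for nonsense-mediated decay, held 35.4% and 51.8% of Ect2 TPM and 8.99% and 15.6% of its counts. On expected counts all 43 genes had a protein-coding transcript in the lead. The same 4 genes had under 50% of their TPM in coding transcripts, 22.7% ± 4.96 for Ncapd2, 38.1% for Ect2, 38.3% for Smc4 and 44.97% for Cdk1, and none did on counts. This is 9.30% of the 43 genes, beside 15.1% of detected nuclear protein-coding genes.

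Counting only coding transcripts lowered the median of the 43 genes to 19.8 TPM and changed their order. It also lowered the median of the detected nuclear protein-coding genes, from 9.76 to 7.26 TPM. The highest gene stayed the same in 4 of the 6 roles and the lowest in 3. Cdk1 became the lowest of the kinases, cyclins and partners, and Ect2 the lowest of the cytokinesis genes. Among the further APC/C genes Ube2s (61.9 mean TPM) then stood above Anapc1 (43.8). Ncapd2 then averaged 23.2 ± 5.95 TPM and Smc4 36.9 ± 3.30 TPM (SD, n = 2), moving from 2nd and 3rd place to 18th and 9th. Short transcripts weigh on this scale too, since the Ncapd2 value includes the 604 nt coding Ncapd2-212 (4.89 and 13.4 TPM). Cdk1 averaged 8.90 ± 1.64 TPM and Ect2 9.85 ± 0.424 TPM. Mki67, with a single transcript of 10075 nt, stayed first at 148 ± 4.96 TPM, and Ube2c came second at 69.1 ± 8.81 TPM. Top2a averaged 49.7 ± 0.509 TPM on this scale, with the rest of its level in processed transcripts.

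**Figure D3:**
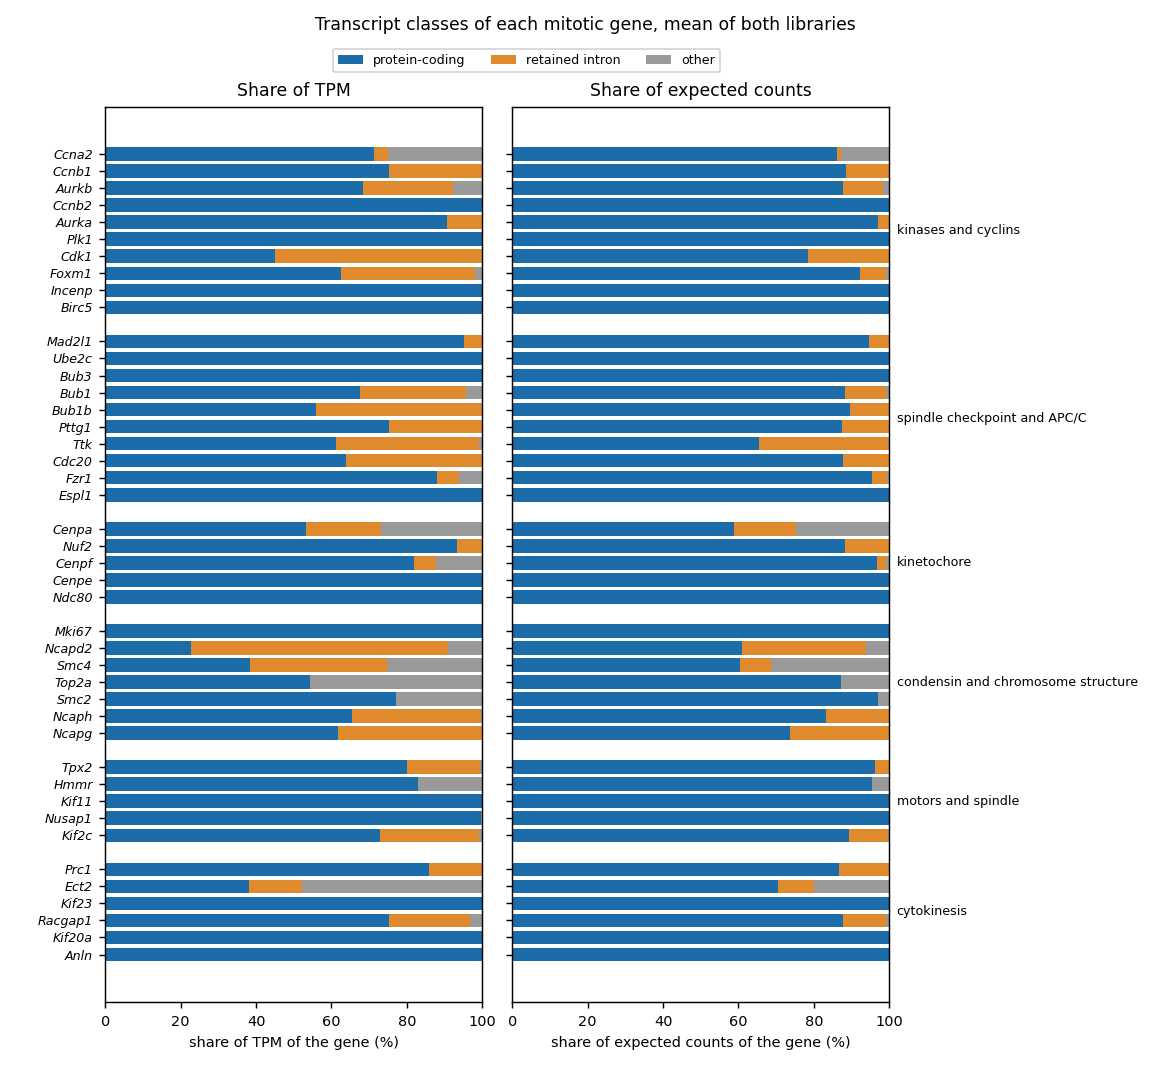
Share of each gene's TPM (left) and expected counts (right) in protein-coding, retained-intron and other transcripts, as the mean of both libraries in percent. Ncapd2, Ect2, Smc4 and Cdk1 have coding shares of 22.7% to 44.97% on TPM, while on counts every gene has a coding share of 58.7% or more.

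The leading transcript differed between the libraries in 3 genes. In Aurkb it was the coding Aurkb-202 in replicate 1 (35.7% of TPM) and the coding Aurkb-201 in replicate 2 (48.1%). In Smc4 it was Smc4-204 in replicate 1 and the coding Smc4-202 (29.2%) in replicate 2. In Pttg1 it was the 388 nt retained-intron Pttg1-208 in replicate 1 (34.83%), just above the coding Pttg1-203 (34.35%). In replicate 2 it was the coding Pttg1-205 (53.1%). For Pttg1 the shares were the least stable of these. In replicate 1 the 700 nt Pttg1-203 had 130.5 counts and the 696 nt Pttg1-205 had 0. In replicate 2 they had 0 and 168. All 43 genes kept a coding leader on the mean of counts, but a single transcript's share is less firmly measured than its gene's level.

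Ratios between partner genes compared levels per length within each library. Ccnb2 over Ccnb1 averaged 0.367 ± 0.0351 (SD, n = 2), from 0.392 for replicate 1 and 0.342 for replicate 2. Ccna2 over Ccnb1 averaged 1.34 ± 0.122, and Aurkb over Aurka 1.69 ± 0.0984. These 3 cyclin and kinase ratios stayed on the same side of 1 in both libraries, on counts and on coding transcripts alone. Birc5 over Incenp, partners in the passenger complex, was 0.984 ± 0.0457, with 1 inside the spread. Bub1b over Bub1 averaged 0.547 ± 0.0375 and Ndc80 over Nuf2 0.773 ± 0.0139. Kif23 over Racgap1 was 1.06 ± 0.0269 on all transcripts, 1.41 ± 0.06 on coding ones and 1.46 ± 0.0126 on counts. Cenpf over Cenpe was 0.966 and 1.26, on both sides of 1.

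Condensin ratios moved most with the choice of transcripts. Smc4 over Smc2 was 2.33 ± 0.0466 on all transcripts and 1.15 ± 0.0901 on coding ones. Ncapg over Ncapd2 was 0.270 ± 0.00593 on all transcripts and 0.759 ± 0.232 on coding ones, and Ncaph over Ncapd2 was 0.287 ± 0.0260 and 0.856 ± 0.269. Among coding transcripts Ncaph over Ncapd2 was 1.05 in replicate 1 and 0.666 in replicate 2, so those subunits were closer to each other. The coding value of Ncapd2 includes the 604 nt Ncapd2-212, with 4.89 and 13.4 TPM in replicates 1 and 2. The 4629 nt Ncapd2-201 had 14.1 and 14.0 TPM. Ncaph-201 (19.9 and 18.25 TPM) and Ncapg-201 (17.55 and 16.3 TPM) lay above Ncapd2-201 in both libraries. The side of 1 thus depends on whether the short coding transcript is summed. Ncapd3 over Ncapd2, condensin II over condensin I, was 0.193 ± 0.00362 on all transcripts and 0.871 ± 0.174 on coding ones. Ncapg2 over Ncapg was 0.700 ± 0.0133 on all and 1.14 ± 0.1 on coding transcripts, the opposite side of 1, and 1.52 ± 0.129 on expected counts. Ncaph2 over Ncaph was 0.812 ± 0.262 on all and 0.535 ± 0.0548 on coding transcripts.

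The anaphase ratios also turned on the scale. Cdc20 over Fzr1 was 1.18 in replicate 1 and 1.43 in replicate 2 on all transcripts, but 0.768 and 1.14 on coding ones. Their order is therefore not settled in these libraries. Pttg1 over Espl1, securin over separase, was 3.06 and 2.27 on all transcripts and 2.00 and 1.94 on coding ones. On expected counts it was 0.244 and 0.193, since the Espl1 transcript of 6630 nt gathers many more fragments per molecule than the short Pttg1 transcripts.

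**Figure D4:**
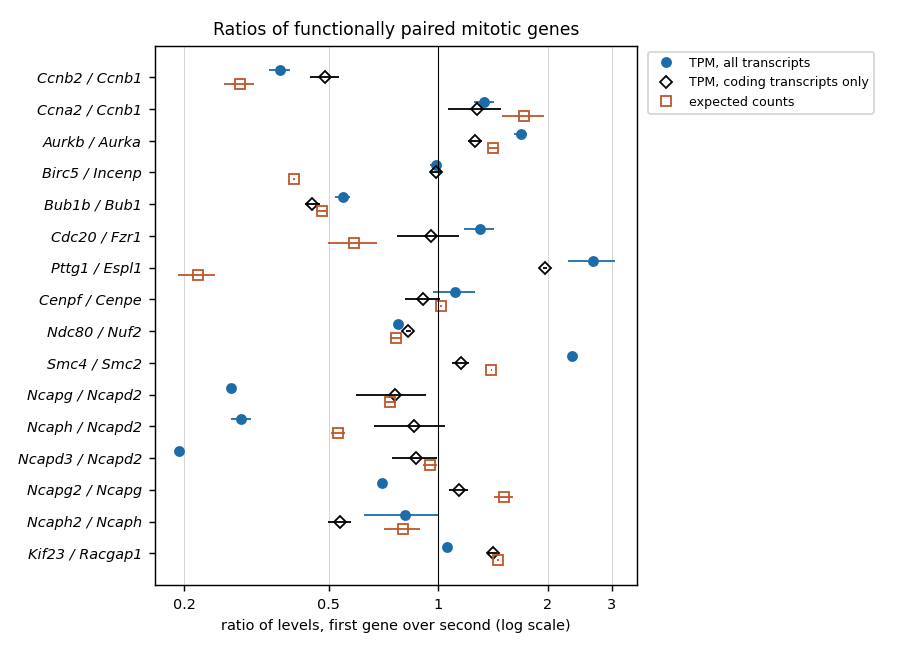
Ratios of 16 pairs of mitotic genes (first gene over second, log axis) on TPM of all transcripts, on TPM of coding transcripts and on expected counts; symbols give the mean of both libraries and lines join the libraries' values. Ratios with Ncapd2 in the denominator lie at 0.193 to 0.287 on TPM and at 0.759 to 0.871 on coding transcripts.

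The replicates were close for most of the 43 genes. On log2 of TPM + 0.1, which understates differences of low genes, 3 of 43 were 25% or more apart, beside 23.7% of 8808 nuclear protein-coding genes whose mean TPM was at least 1 and 15.5% of those at 5 or above. None was 2-fold apart, beside 1.95% and 0.289%. On expected counts scaled by the nuclear protein-coding total, 0 of the 43 were 25% apart. Beside them stood 18.2% of the 8808 genes and 589 of the 6239 genes with a mean TPM of at least 5. On counts 0 of the 43 were 2-fold apart, beside 1.41% of the 8808. The median log2 ratio, replicate 1 over replicate 2, was -0.06 on TPM, beside -0.03 over the 8808 genes, and 0.0049 on counts.

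On TPM of all transcripts the genes furthest apart were lower in replicate 1. Cenpf had a log2 ratio of -0.50 on TPM and -0.11 on scaled counts (3960 and 4122 counts). Foxm1 had -0.40 and -0.02 (1774 and 1734 counts), where the 598 nt retained-intron transcript Foxm1-204 had 0 counts in replicate 1 and 64.1 in replicate 2. Ect2 had -0.33 and -0.05 (1715 and 1719 counts). In all 3 the gene counts were nearly equal and the mean transcript length that TPM divides by was shorter in replicate 2. In Cenpf that length was 8192 nt in replicate 1 and 6355 nt in replicate 2. In the other direction Ube2c had 0.26 on TPM and 0.30 on scaled counts (2112 and 1663 counts), Aurkb had 0.26 and 0.11, and Smc2 had 0.17 and 0.03. Ube2c, with 1 transcript holding 99.9% of its TPM, was thus the one of these 6 whose difference was as large on counts.

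Small differences ran one way within some roles. On TPM 27 of the 43 genes were higher in replicate 2, beside 54.7% of the 8808 genes, and on scaled counts 21 of 43 were, beside 50.4%. All 6 cytokinesis genes were lower in replicate 1 on both scales, with log2 ratios of -0.33 to -0.04 on TPM and a median of -0.10 on counts. On coding transcripts Ect2 was higher in replicate 1 (0.09), while the rest of them stayed lower. Of the 10 checkpoint and APC/C genes, 8 were higher in replicate 1 on counts and 6 on TPM. With 1 library each side these are descriptions of the libraries.

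**Figure D5:**
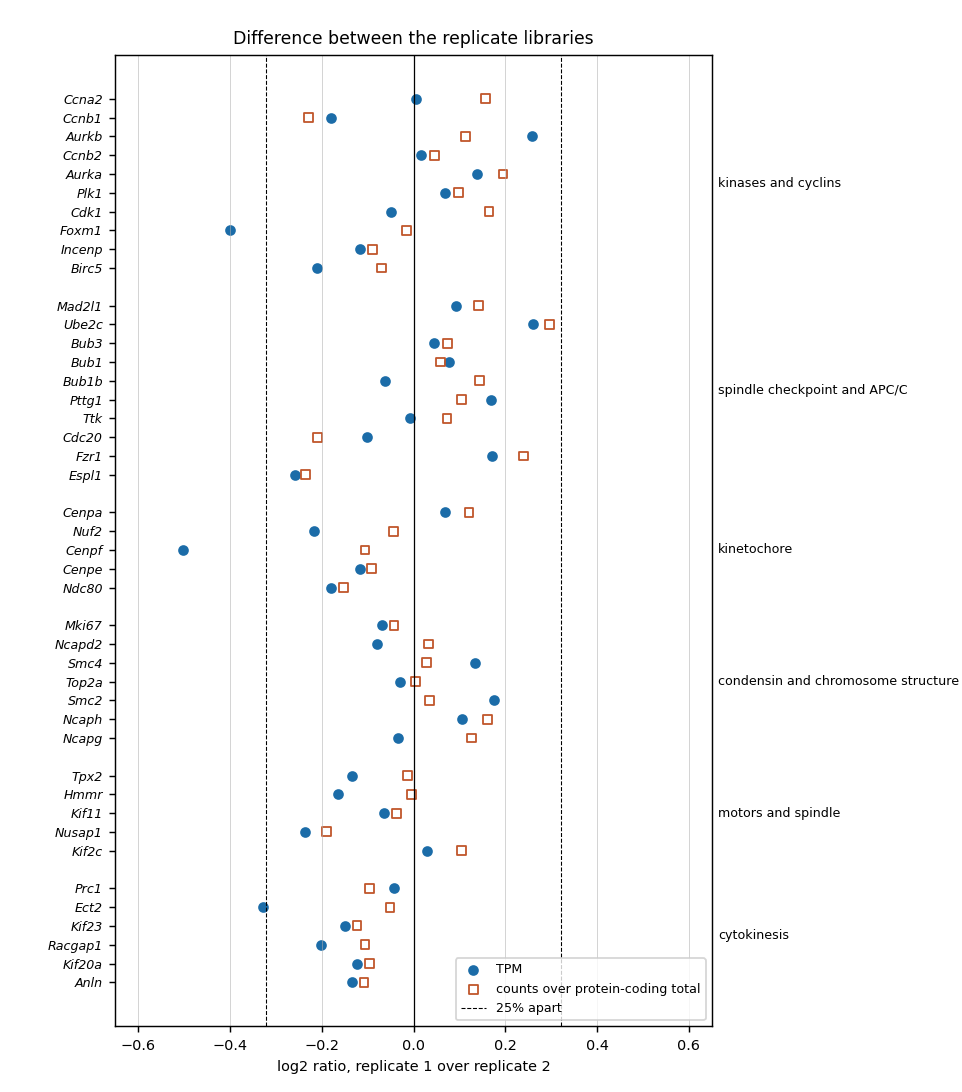
Log2 ratio of replicate 1 over replicate 2 for each of the 43 mitotic genes on TPM (filled circles) and on expected counts over the nuclear protein-coding total (open squares); dashed lines mark a difference of 25%. Cenpf (-0.50), Foxm1 (-0.40) and Ect2 (-0.33) lie beyond the line on TPM, and no gene does on counts.

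Some of these values share reads or sequence with neighbours and copies. Whether counting used strand is not given in the sources used here, and 7 of the genes overlap exons of a detected gene on the other strand. These pairs are Ccna2 with Exosc9 (316 and 438 counts), Cdc20 with Elovl1 (1401 and 1453), Fzr1 with Mfsd12 (306 and 290), Ncapg with Lcorl (863 and 1062), Nusap1 with Oip5 (305 and 330), Kif20a with Cdc23 (1878 and 1928) and Prc1 with Rccd1 (208 and 216). For Cdc20, with 344 and 385 counts, the neighbour had more counts than the gene itself. Ncapd2 hosts the small RNA gene Scarna10 (201 and 197 counts) on its own strand. Gm28967 also overlaps Ncapd2 exons on that strand, with 72.75 counts in replicate 1 and 0 in replicate 2. Top2a exons overlap the small RNA gene Gm23451 on the same strand (5.76 and 4.27 counts). Processed copies of Ccnb1 are 98.1% (Gm12856) and 99.2% (Ccnb1-ps) identical to it over 1294 and 1287 bases and were listed with 1.27 and 6.84 counts and with 15.3 and 10.4 counts. Against the 3636 and 4125 counts of Ccnb1 these are few, although reads in identical stretches cannot be assigned. Ndc80 shares 95.05% identity over 303 bases with 2700099C18Rik, which had 138 and 152 counts against 915 and 984 for Ndc80.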

How the data were processed

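Total RNA-seq of 1 group with 2 biological replicates was analysed. The assembly was mm10 per the labels and the annotation GENCODE M4 per the deposited documentation. The aligner, the quantifier and any trimming were not given in the sources used here, for either library. The authors deposited expected counts, estimates of the reads of each gene or transcript without normalization. They deposited TPM, which is per effective length with 1 fixed sum per library. FPKM values deposited by the authors and their posterior mean TPM were used as alternatives. The percent of a gene's TPM that each transcript holds was also deposited by the authors. Effective length was 119 nt and 123 nt below length in replicates 1 and 2.

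Genes were named by GENCODE M21 (42462 of 43346 matched), which also gave transcript types. Members, gene lists and pairs were chosen with earlier results of these data known. Values are given per library and as mean ± SD; there is no contrast, so no test was run. Log2 ratios used pseudocounts of 0.1 (TPM) and 0.5 (counts), and a gene was detected at a TPM of 1 in both libraries. The code for ratios was tested on simulated data. Genes were named in the text by a rule: the 2 highest and 2 lowest of each role, the genes of 16 pairs, the 3 furthest apart between libraries in each direction, and of other lists the 2 highest and the lowest; of the replication, G1 and erythroid lists the same. Genes outside it were named after their values were seen. Copies were sought with BLAST+ 2.17.0 megablast (identity of 95% or more over 200 bases or more) using the longest coding transcript of each gene. Promoter windows came from the RefSeq table. A planned count of degradation motifs in proteins was not run. Software was matplotlib 3.10.9, scipy 1.17.1, numpy 2.4.6, pandas 2.3.3 and Python 3.11.15. Alternatives changed the threshold, unit, pseudocount, scaling, filter and transcripts summed, and left out each replicate; those on coding transcripts, and on counts for genes 25% apart, were chosen after seeing the data. Floors cover counting error only, since reads carry no molecular identifiers.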

Additional observations from a re-analysis of the deposited data

How the results depend on the processing

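No paired analysis was possible because the series has 1 group. All 43 genes stayed detected at thresholds of 0.5 and 5, on rescaled TPM, FPKM, posterior mean TPM and coding transcripts, and without either replicate. The median level was 24.1 TPM; it was 106 after rescaling TPM over nuclear protein-coding genes, 15.8 on FPKM and 19.8 on coding transcripts, and 23.8 to 25.75 with 1 library left out. The median log2 ratio of -0.06 turned to 0.0049 on counts scaled by the nuclear protein-coding total and to 0.0084 on counts scaled by the median of ratios. The 3 genes 25% or more apart became 0 and 0 on these scalings. On coding transcripts there were again 3, with Ncapd2 and Cdk1 beside Cenpf in place of Foxm1 and Ect2. The longest coding transcripts of Ncapd2 (Ncapd2-201, 14.1 and 14.0 TPM) and Cenpf (Cenpf-204, 10.15 and 10.6 TPM) were close between replicates 1 and 2. Shorter coding ones differed: Ncapd2-212 (604 nt) had 4.89 and 13.4 TPM, Cenpf-203 (3001 nt) 1.43 and 3.28, and Cenpf-202 (358 nt) 0.88 and 2.97. The median leading transcript share was 71.1% of TPM, 87.2% on expected counts and 68.1% to 69.4% with 1 library left out. On expected counts (no division by length) Cdc20 over Fzr1 became 0.587, Pttg1 over Espl1 0.218 and Ncapg2 over Ncapg 1.52; on coding transcripts Cdc20 over Fzr1 became 0.955 and Ncapg2 over Ncapg 1.14. Of 16 pair ratios, all 16 on FPKM and 15 on posterior mean TPM stayed within 1 SD, but 3 did on counts and 3 on coding transcripts. With 2 libraries, an SD is itself poorly known, and transcripts with under 100 counts set some TPM shares.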

Other observations

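Beside the mitotic genes, the genes of replication licensing and the fork were led by the helicase genes Mcm3 (237 and 243 TPM in replicates 1 and 2) and Mcm6 (106 and 107.5 TPM), with Gins3 lowest on the mean (8.24 and 6.49 TPM). On transcripts annotated as protein-coding Mcm6 averaged 94.5 TPM and Mcm3 52.3 TPM, and Gins2 was lowest with 2.08 TPM. Of 8 G1 cyclin and kinase genes 7 were detected, led by Cdk4 (155 and 177 TPM) and the cyclin D2 gene Ccnd2 (93.1 and 92.6 TPM), while Ccnd1 was listed at 0 and 0.01 TPM. In replication promoters (23 windows of 19 genes) a CHR was found in 17.4% and CCAAT in 69.6%, and in the promoters of the other mitotic genes (93 windows of 82 genes) in 28.0% and 47.3%, beside 46.2% and 76.9% for the 43 genes. Both together were found in 17.4% of replication windows and 14.0% of other mitotic ones, beside 43.6% for the 43 genes. A CHR began within 50 bases of the start in 4.35% and 14.0%, beside 23.1%.

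Chromosome 2 holds 7 of the 43 genes (16.3%, beside 8.39% of nuclear protein-coding genes), Bub1, Bub1b, Ncaph, Tpx2, Nusap1, Aurka and Ube2c, and chromosome 11 holds 5.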
